A study of Homo sapiens with 6 samples.

Results

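The BCL2 family is the set of proteins that decides whether the outer mitochondrial membrane is opened during apoptosis. The 10 genes described here were chosen by symbol from a table of 60623 genes: the survival proteins BCL2, BCL2L1 and MCL1, the pore-forming effectors BAX and BAK1, and the BH3-only proteins BBC3, PMAIP1, BCL2L11, BID and BAD. Gene expression was measured by RNA-seq in 6 libraries whose label is Huh7, the name of a cell line from a human liver cancer. In 3 libraries the SR-type splicing factor SRSF10 was knocked down, with a short hairpin according to the series title. The 3 controls carry the genotype label WT and titles beginning with NC. Whether they received a control hairpin is not stated, so a hairpin as such, its delivery and the loss of SRSF10 cannot be told apart. No treatment is given for either group, and no label says whether the hairpin cells are a clone or a pool, or that replicates were separate cultures. The p-values therefore speak of the spread among these 6 samples, and that spread may be technical.

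BCL2, BCL2L1 (whose long product is Bcl-xL) and MCL1 hold BAX and BAK1 in check and bind BH3-only proteins. BH3-only proteins are raised or activated by stress, occupy that groove or act on the effectors directly, and so free BAX and BAK1 to form pores that release cytochrome c. Hepatocytes are known to depend on MCL1 and Bcl-xL for survival. SRSF10 is known to influence the splicing of BCL2L1, and the values here are per gene, so they do not separate spliced forms.

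All members share the BH3 motif, the short helix through which pro-apoptotic members fit into the groove of the survival proteins. The stretch that encodes it is shown because it is the sequence feature common to all 3 classes. Each line gives 36 coding bases of the GENCODE release 29 transcript (GRCh38), 5′ to 3′, with the leucine codon, and the small-residue codon followed by the aspartate codon, in capitals.
BCL2, chr18:63318352-63318387, minus strand: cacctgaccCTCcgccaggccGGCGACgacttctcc
BCL2L1, chr20:31721925-31721960, minus strand: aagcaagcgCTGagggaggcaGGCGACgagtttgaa
MCL1, chr1:150578868-150578903, minus strand: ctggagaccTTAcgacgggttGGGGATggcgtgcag
BAX, chr19:48955778-48955813, plus strand: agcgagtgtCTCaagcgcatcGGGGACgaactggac
BAK1, chr6:33575390-33575425, minus strand: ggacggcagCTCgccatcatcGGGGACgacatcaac
BBC3, chr19:47226582-47226617, minus strand: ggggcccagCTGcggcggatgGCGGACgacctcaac
PMAIP1, chr18:59902664-59902699, plus strand: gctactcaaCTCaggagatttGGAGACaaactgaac
BCL2L11, chr2:111150094-111150129, plus strand: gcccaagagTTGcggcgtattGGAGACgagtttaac
BID, chr22:17739418-17739453, minus strand: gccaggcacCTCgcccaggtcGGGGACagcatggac
BAD, chr11:64271625-64271660, minus strand: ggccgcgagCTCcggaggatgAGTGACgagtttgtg

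The codon before the aspartate codon began with GG in 8 of the 10 genes and was GCG in BBC3 and AGT in BAD. The aspartate codon was GAC in 9 genes and GAT in MCL1. Against the stretch of BCL2L11, the others matched at 15 (BID) to 23 (BAD) of 36 bases. The search pattern was a leucine codon, any 3 codons, a glycine, alanine or serine codon and an aspartate codon. It matched once in 9 of the genes and at 2 places in BID, of which the known BH3 position is shown. The pattern alone is common: 32.3% of 13393 human coding sequences searched the same way held it.

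For BCL2L1, the sequence around the alternative splice site is shown because SRSF10 is known to act on the choice made there. In GENCODE release 29 the long transcript (Bcl-xL) has 233 codons and the short transcript (Bcl-xS) has 170. The short form leaves the first coding exon 189 bases early, and the BH3 stretch lies upstream, in both forms. Bases kept in the long form alone are in capitals, all on the minus strand of chromosome 20. The line across the short-form splice site covers chr20:31721814-31721873. The long form joins chr20:31721655-31721684 to chr20:31666057-31666086, and the short form joins chr20:31721844-31721873 to that same downstream exon.
Across the short-form splice site: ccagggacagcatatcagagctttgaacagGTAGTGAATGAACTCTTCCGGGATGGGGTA
Long-form junction: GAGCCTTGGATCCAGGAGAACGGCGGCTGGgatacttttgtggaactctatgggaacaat
Short-form junction: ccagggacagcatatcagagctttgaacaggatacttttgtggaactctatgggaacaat
The 189 bases make up 5.7% of the 3314 exonic bases of the gene. The share of the forms was not measured here.

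The values are FPKM, fragment counts divided by gene length and library depth, so levels can be compared roughly between genes. The gene lengths used and the handling of reads shared by overlapping genes are not given. Orders, sums and ratios of different genes below carry that limit. Estimated depth was 12720000 to 14350000 fragments per library. SRSF10 was measured at 18.6, 19.5 and 19.8 FPKM in control libraries and 10.6, 10.8 and 10.6 FPKM in knockdown libraries, a fall to values outside the control range (log2 fold change -0.80, SE 0.038, limma adjusted p = 0.000166; two-sided exact permutation p = 0.1, which is the smallest that 3 against 3 allows). The cell line label was checked against 8 hepatocyte markers, of which FGB alone reached 1 FPKM in 3 libraries (4.83 to 5.53). ALB was at 0.115 to 0.172 FPKM in the controls and 0.434 to 0.814 FPKM in the knockdown, SERPINA1 at 0.0753 to 0.144 and 0.539 to 0.674 FPKM, and AFP at 0.669 to 0.958 FPKM over both groups. The summed hepatocyte markers were 6.30 to 6.54 and 7.02 to 8.24 FPKM in control and knockdown, without overlap. APOA2 and TTR were listed at 0 in all 6 libraries, so the defining liver transcripts were scarce or absent. These markers therefore did not bear out the label of a liver cancer line, and the identity of the cells was not tested further. The summed level of 5 bile duct markers was 339 to 366 FPKM in the controls and 436 to 455 FPKM in the knockdown, and 4 of the 5 reached 1 FPKM in at least 3 libraries. The list did not move one way: SPP1 was at 242 to 272 and 345 to 370 FPKM and SOX9 at 0.800 to 1.90 and 3.82 to 5.27 FPKM in control and knockdown, while KRT19 was at 89.3 to 92.8 and 78.7 to 88.4 FPKM and KRT7 at 2.42 to 3.65 and 0.964 to 1.40 FPKM, each without overlap. The sum of 4 endothelial markers was 5.43 to 6.13 and 9.46 to 10.8 FPKM, from PECAM1 and KDR, with CDH5 and VWF under 0.1 FPKM. None of the 6 fibroblast or 5 leukocyte markers reached 1 FPKM in 3 libraries, with sums of 0.084 to 0.117 and 0.572 to 0.802 FPKM for fibroblast markers and 0.16 to 0.242 and 0.299 to 0.517 FPKM for leukocyte markers in control and knockdown. The part of these marker differences in the results below was not tested.

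MCL1 was the most abundant member by far and BCL2 was barely detected. By mean over the 6 libraries the order was MCL1 (103 FPKM), BAX (18.3), BCL2L1 (14.4), PMAIP1 (13.9), BID (13.0), BAK1 (10.5), BAD (5.78), BCL2L11 (4.66), BBC3 (1.23) and BCL2 (0.194). Neighbours whose values overlapped over the 6 libraries were BCL2L1 with PMAIP1, PMAIP1 with BID, and BAD with BCL2L11. In the other 6 neighbouring pairs every value of the higher gene lay above every value of the lower one. MCL1 exceeded the mean level of 98.1% of tested genes, BAX that of 81.6% and BBC3 that of 6.8%.

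Of the 10 members 9 were tested, 1 fell, 0 rose and 8 did not pass the test. A gene was tested if it reached 1 FPKM in at least 3 libraries, and called if its limma p, adjusted by the Benjamini-Hochberg method over all 12191 tested genes, was under 0.05. Over all tested genes 25.2% were called, 12.6% higher and 12.5% lower, so 1 of 9 is not above the background. The median log2 fold change was 0.034 over the 9 tested members and -0.01 over all tested genes. The median size of change was 0.074 for the tested members and 0.126 for all tested genes. In 2 of the 9, MCL1 and BCL2L11, the values of the groups did not overlap, against 42.7% of all tested genes.

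**Figure D1:**
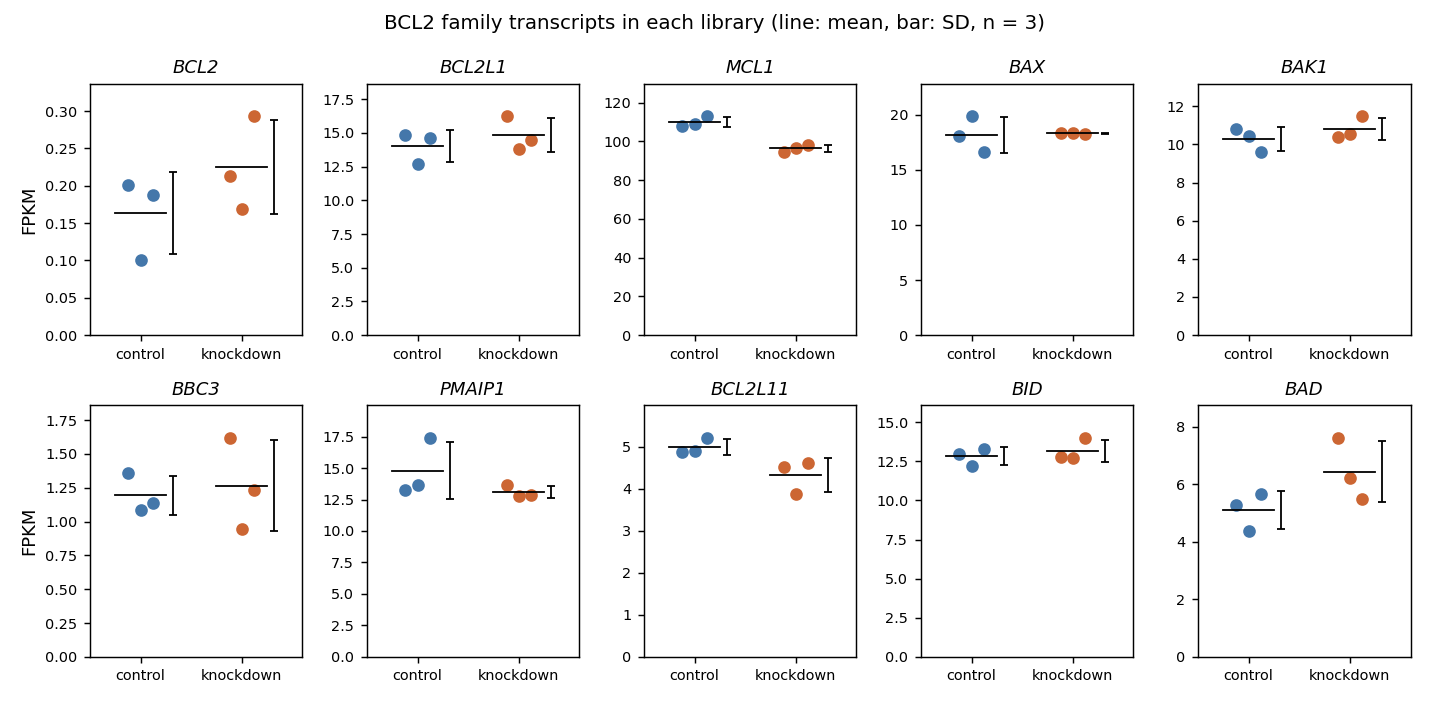
FPKM (y axis, from 0, with its own scale in each panel) of the 10 members in each library, 3 control (blue) and 3 knockdown (orange) points per gene with the group mean as a line and the SD as a bar. The MCL1 points of the knockdown, 94.6 to 98.1 FPKM, all lie below those of the controls, 108 to 113 FPKM, and BCL2L11 is the other gene without overlap.

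MCL1, a short-lived survival protein that binds BAK1 and the BH3-only proteins PMAIP1 and BCL2L11, was the member that fell. MCL1 (ENSG00000143384, minus strand of chromosome 1, 150574551 to 150579738) was measured at 108, 109 and 113 FPKM in control libraries and 94.6, 96.4 and 98.1 FPKM in knockdown libraries. Every knockdown value was under every control value. The means were 109.9 ± 2.6 and 96.4 ± 1.8 FPKM (SD, n = 3 per group), 12.3% lower in the knockdown. On the log2 scale this was -0.19 (SE 0.032, 95% interval -0.26 to -0.11, limma adjusted p = 0.00742). The two-sided exact permutation p on FPKM was 0.1, the smallest that 3 against 3 allows. About 5465 to 6779 fragments per library lay behind the MCL1 values. Counting error alone would give a coefficient of variation of 1.24% in the controls, where 2.36% was seen. The size of the fall exceeded that of 66% of tested genes and was under the median size among called genes, 0.31. In bulk RNA, fewer cells with a transcript and less of it per cell cannot be told apart. The median log2 fold change of the 1221 tested genes of chromosome 1 was -0.0084.

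BCL2L1, the survival protein that binds BAX, BAK1 and most BH3-only proteins in its long form, did not pass the test. BCL2L1 (ENSG00000171552, minus strand of chromosome 20, 31664452 to 31723989) was measured at 14.8, 12.7 and 14.6 FPKM in control libraries and 16.2, 13.8 and 14.5 FPKM in knockdown libraries. The ranges overlapped, with control replicate 2 lowest and knockdown replicate 1 highest. The log2 fold change was 0.074 (SE 0.078, 95% interval -0.11 to 0.26, limma adjusted p = 0.54). Leaving out 1 library gave 0.0068 (control replicate 2) to 0.12 (knockdown replicate 2), with 0.012 without knockdown replicate 1. The value sums reads from both junctions printed above. Over 1424 of its exonic bases, 43%, an antisense gene, ABALON, overlaps it. ABALON was listed at 0.116 to 0.537 FPKM, and without a stated strand setting reads of the pair cannot be told apart.

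BCL2, the founding survival member, was under the filter in all libraries and has no model p. BCL2 (ENSG00000171791, minus strand of chromosome 18, 63123346 to 63320128) was measured at 0.201, 0.1 and 0.188 FPKM in control libraries and 0.212, 0.169 and 0.293 FPKM in knockdown libraries. These correspond to an estimated 34, 15 and 30 and then 35, 27 and 44 fragments over 11765 exonic bases. The ranges overlapped (exact two-sided permutation p = 0.4). With no filter on low values its log2 fold change was 0.074 (limma adjusted p = 0.597).

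Neither effector passed the test. BAX, which moves from the cytosol to mitochondria when activated, and BAK1, which resides in the mitochondrial membrane, are the members that form the pore. BAX (ENSG00000087088, plus strand of chromosome 19, 48954815 to 48961798) was measured at 18.1, 19.9 and 16.6 FPKM in control libraries and 18.4, 18.3 and 18.3 FPKM in knockdown libraries. The knockdown values sat inside the control range (log2 fold change 0.013, SE 0.062, 95% interval -0.13 to 0.16, limma adjusted p = 0.899). Their coefficient of variation, 0.229%, was under the 3.96% that counting alone would give, so that closeness overstates the precision. BAK1 (ENSG00000030110, minus strand of chromosome 6, 33572547 to 33580293) was measured at 10.8, 10.5 and 9.61 FPKM in control libraries and 10.4, 10.6 and 11.5 FPKM in knockdown libraries. The ranges overlapped (log2 fold change 0.063, SE 0.058, 95% interval -0.075 to 0.201, limma adjusted p = 0.478). Single libraries weighed on the BAK1 estimate, which was 0.019 without control replicate 3, 0.023 without knockdown replicate 3 and 0.096 without control replicate 1. The processed copies BAK1P1 and BAK1P2, with which reads of BAK1 could be shared, were listed at 0 to 0.449 and 0 to 0.234 FPKM.

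Among the 5 BH3-only members none passed the test, and the point estimates went both ways. BCL2L11 (Bim), which binds all survival members and is regulated by FOXO factors and ERK signalling, came closest to a fall. BCL2L11 (ENSG00000153094, plus strand of chromosome 2, 111119378 to 111168447) was measured at 4.87, 4.90 and 5.20 FPKM in control libraries and 4.52, 3.86 and 4.61 FPKM in knockdown libraries. The groups did not overlap, but the difference was not called (log2 fold change -0.17, SE 0.068, 95% interval -0.33 to -0.0097, limma adjusted p = 0.114). Without knockdown replicate 2, its lowest library, the log2 fold change of BCL2L11 was -0.106. Its spread in the knockdown was 9.41%, against 5.08% from counting. The antisense gene MIR4435-2HG overlaps 727 of its exonic bases (10.9%) and was at 1.62 to 1.96 FPKM in the controls and 2.14 to 2.36 FPKM in the knockdown.

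BAD is a BH3-only protein held inactive by survival-kinase phosphorylation. With all 6 libraries, it had the largest point estimate on the log2(FPKM + 1) scale among the 9 tested members. BAD (ENSG00000002330, minus strand of chromosome 11, 64269830 to 64284704) was measured at 5.29, 4.37 and 5.66 FPKM in control libraries and 7.61, 6.24 and 5.5 FPKM in knockdown libraries. Knockdown replicate 3 lay within the control range, and the other two knockdown values above it. The log2 fold change was 0.28 (SE 0.12, 95% interval -0.0055 to 0.57, limma adjusted p = 0.14), on 95 to 182 estimated fragments per library. It was 0.17 without knockdown replicate 1 and 0.19 without control replicate 2, and in both cases smaller in size than the estimates of PMAIP1 and MCL1. GPR137, on the opposite strand, shares 404 of its exonic bases (23.7%) and was at 3.7 to 4.74 FPKM.

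PMAIP1 (Noxa), a stress-induced protein that binds MCL1 selectively, had a point estimate that rested on 1 control library. PMAIP1 (ENSG00000141682, plus strand of chromosome 18, 59899948 to 59904306) was measured at 13.3, 13.7 and 17.4 FPKM in control libraries and 13.7, 12.8 and 12.9 FPKM in knockdown libraries. Control replicate 3 stood above all others, and the remaining values overlapped. The log2 fold change was -0.15 (SE 0.096, 95% interval -0.38 to 0.074, limma adjusted p = 0.294), and without control replicate 3 it was -0.039.

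BID, which caspase-8 cleaves to link death receptors to mitochondria, and BBC3 (Puma), which binds every survival member, did not pass the test, with small point estimates. BID (ENSG00000015475, minus strand of chromosome 22, 17734138 to 17774770) was measured at 13.0, 12.2 and 13.3 FPKM in control libraries and 12.8, 12.7 and 14.0 FPKM in knockdown libraries. The ranges overlapped (log2 fold change 0.034, SE 0.053, 95% interval -0.091 to 0.16, limma adjusted p = 0.683). BBC3 (ENSG00000105327, minus strand of chromosome 19, 47220822 to 47232766) was measured at 1.36, 1.09 and 1.14 FPKM in control libraries and 1.62, 0.947 and 1.23 FPKM in knockdown libraries. The knockdown values spread to both sides of the controls (log2 fold change 0.037, SE 0.13, 95% interval -0.26 to 0.34, limma adjusted p = 0.864). With 41 to 72 estimated fragments per library, BBC3 had the widest interval of the 9.

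**Figure D2:**
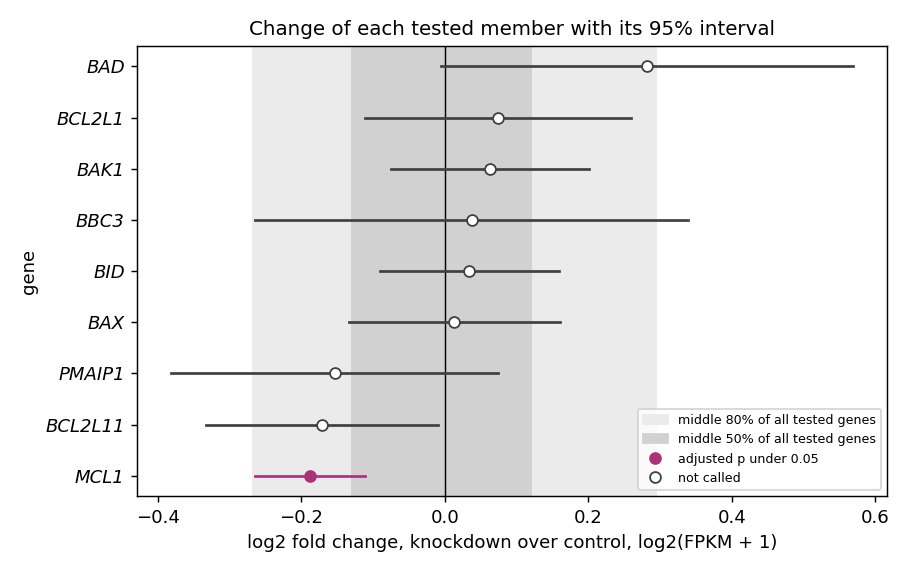
Log2 fold change of knockdown over control on the log2(FPKM + 1) scale (x axis) for the 9 tested members (y axis), as points with 95% limma intervals. The filled point, MCL1 at -0.19, passed the test, and all 9 points lie within the light band that holds the middle 80% of tested genes, -0.27 to 0.295.

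The balance between survival and death members was described by sums, with no test. The sums use values per gene, so spliced forms, among them the long and short forms of BCL2L1, were not separated. The survival sum was 123, 122 and 128 FPKM in the controls and 111, 110.4 and 113 FPKM in the knockdown, and MCL1 made up 85.2% to 89.5% of it. Every knockdown sum was under every control sum, with means of 124 ± 3.2 and 111 ± 1.3 FPKM. The sum of the pro-apoptotic members was 66.7, 66.6 and 68.9 FPKM in the controls and 68.9, 65.5 and 67.9 FPKM in the knockdown, with overlapping ranges. Within it the effectors gave 28.5 ± 2.1 and 29.1 ± 0.55 FPKM and the BH3-only members 38.9 ± 3.4 and 38.3 ± 1.8 FPKM in control and knockdown.

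The ratio of survival to pro-apoptotic sums was 1.84, 1.83 and 1.85 in the controls and 1.61, 1.69 and 1.66 in the knockdown. These ranges did not overlap, and the mean was 10.2% lower in the knockdown. Without MCL1 the ratio was 0.225, 0.192 and 0.215 against 0.239, 0.213 and 0.217, which overlapped, so the difference rests on MCL1. A ratio within a library does not depend on how that library was scaled.

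The ratio of MCL1 to BCL2L1 was 7.28, 8.58 and 7.72 in the controls and 5.83, 6.98 and 6.79 in the knockdown, without overlap. MCL1 to its selective binder PMAIP1 was 6.497 to 8.13 in the controls and 6.91 to 7.63 in the knockdown, which overlapped. For MCL1 to BCL2L11 the values were 21.7 to 22.2 and 20.9 to 24.96, with means of 22.02 and 22.4 and overlapping ranges. BAX to BCL2L1 was 1.14 to 1.57 and 1.13 to 1.33, also overlapping.

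**Figure D3:**
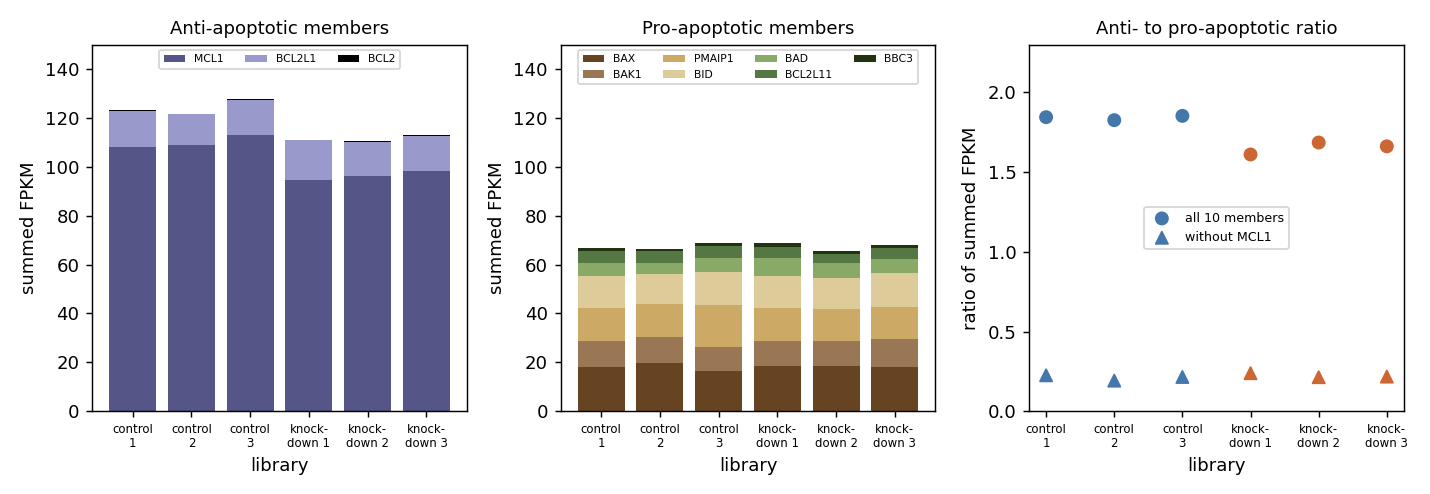
Summed FPKM of the 3 survival members and of the 7 pro-apoptotic members as stacked bars, and the ratio of the sums as points, for each library (x axis). Control ratios with all 10 members (blue circles) are 1.83 to 1.85 and knockdown ratios (orange circles) 1.61 to 1.69, while the ratios without MCL1 (triangles) overlap.

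Of 13 other BCL2 family genes 9 were tested, 1 rose and 1 fell, beside 12.6% and 12.5% of all tested genes. BNIP3L, a mitophagy receptor, rose from 11.9, 10.9 and 9.82 FPKM to 13.7, 15.5 and 13.5 FPKM (0.36 on the log2 scale, SE 0.0797, limma adjusted p = 0.018). BCL2L15, a less studied relative, fell from 2.32, 2.40 and 2.57 FPKM to 1.71, 1.79 and 1.80 FPKM (-0.31 on the log2 scale, SE 0.065, limma adjusted p = 0.0151). Groups did not overlap in either gene. Leaving out knockdown replicate 2 ended the call of BNIP3L (adjusted p = 0.0541), and leaving out knockdown replicate 1 that of BCL2L15 (0.0528). The survival protein BCL2L2 was at 5.71 ± 0.36 and 6.19 ± 0.23 FPKM in control and knockdown (adjusted p = 0.242). The effector relative BOK was at 7.45 ± 1.4 and 7.47 ± 0.55 FPKM, and the BH3-only genes BMF and BIK at 5.001 and 4.85 FPKM and at 1.04 and 1.09 FPKM. BNIP3 (adjusted p = 0.506), BCL2L12 (0.765) and BCL2L13 (0.248) did not pass either. BCL2A1, BCL2L10, HRK and BCL2L14 were under the filter, with group means of at most 0.121 FPKM.

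Downstream of the mitochondrion, 1 of 9 caspase and apoptosome genes rose and 1 fell, beside 12.6% and 12.5% of all tested genes. CASP2, an initiator caspase, fell from 12.2 ± 0.64 to 9.68 ± 0.22 FPKM (log2 fold change -0.31, limma adjusted p = 0.00502). APAF1, the scaffold that cytochrome c assembles into the apoptosome, rose from 4.6 ± 0.39 to 5.53 ± 0.28 FPKM (log2 fold change 0.22, limma adjusted p = 0.0471), a call lost without any library but control replicate 2 (adjusted p = 0.0669 to 0.139). The initiator CASP9 (limma adjusted p = 0.725) did not pass. Cytochrome c itself, CYCS, was at 51.2 ± 3.7 and 54.8 ± 1.8 FPKM (adjusted p = 0.241).

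The largest changes in the pathway were among inhibitors of apoptosis. There 2 of 7 tested genes rose and 0 fell, beside 12.6% and 12.5% of all tested genes. BIRC3 (cIAP2), a ubiquitin ligase of TNF receptor signalling, went from 5.61, 3.9 and 4.94 FPKM to 15.2, 14.8 and 12.2 FPKM (1.38 on the log2 scale, SE 0.13, limma adjusted p = 0.000884). BIRC7, a caspase-binding family member, went from 1.57, 1.37 and 0.714 FPKM to 3.23, 3.98 and 3.74 FPKM (1.08 on the log2 scale, SE 0.16, limma adjusted p = 0.00405). All knockdown values of both genes exceeded all control values. XIAP, the direct caspase inhibitor, was at 26.6 and 27.9 FPKM (adjusted p = 0.168) and BIRC2 at 19.8 and 18.6 FPKM (adjusted p = 0.461).

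Among death receptors and adaptors 2 of 8 tested genes rose and 0 fell, beside 12.6% and 12.5% of all tested genes. TNFRSF10B, the TRAIL receptor DR5, rose from 25.2 ± 0.76 to 30.4 ± 0.15 FPKM (log2 fold change 0.26, limma adjusted p = 0.003). The adaptor TRADD rose from 1.99 ± 0.23 to 2.73 ± 0.24 FPKM (log2 fold change 0.32, limma adjusted p = 0.0339), but without any 1 of the 6 libraries its adjusted p was 0.0527 to 0.106. FADD, the caspase-8 adaptor, ranged from 2.82 to 8.94 FPKM among the controls and was not called (adjusted p = 0.461). FAS was listed at a mean of 0.0528 and 0.0927 FPKM, under the filter.

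Of 10 mitochondrial partners of BCL2 proteins 1 fell and 0 rose, beside 12.5% lower and 12.6% higher over all tested genes. OPA1, which shapes the inner membrane cristae that hold cytochrome c, fell from 23.3 ± 0.9 to 18.5 ± 0.46 FPKM (log2 fold change -0.31, limma adjusted p = 0.00294). OPA1 lies on chromosome 3, which carries none of the 10 members and whose 718 tested genes had a median log2 fold change of -0.19. On the 8 chromosomes that do carry members, the medians ran from -0.022 to 0.018. The part of chromosomal position in the change of OPA1 or of any other gene was not tested.

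Of 10 genes for turnover of MCL1 and BH3 proteins 1 rose and 1 fell, beside 12.6% and 12.5% of all tested genes. HUWE1, a ubiquitin ligase that marks MCL1 for degradation, fell from 73.2 ± 1.2 to 66.8 ± 0.98 FPKM (log2 fold change -0.13, limma adjusted p = 0.0217). USP9X, a deubiquitinase that stabilises MCL1, rose from 40.0 ± 0.82 to 44.2 ± 0.84 FPKM (log2 fold change 0.14, limma adjusted p = 0.0212). Groups did not overlap for either. The HUWE1 call was lost without control replicate 1 or any 1 knockdown library (adjusted p = 0.0531 to 0.0818), and that of USP9X without control replicate 1 or 3 or any 1 knockdown library (0.0516 to 0.0817).

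Of 12 transcription factors that act on BCL2 family genes 3 rose and 1 fell, beside 12.6% and 12.5% of all tested genes. FOXO3, a regulator of BCL2L11 and BBC3, rose from 7.83 ± 0.41 to 10.5 ± 0.51 FPKM (log2 fold change 0.38, limma adjusted p = 0.00379). STAT3 rose from 11.5 ± 0.68 to 13.8 ± 0.64 FPKM (adjusted p = 0.0189), and FOXO1 from 1.32 ± 0.079 to 1.78 ± 0.11 FPKM (adjusted p = 0.0476). E2F1 fell from 22.97 ± 1.2 to 20.1 ± 0.11 FPKM (adjusted p = 0.0234). Without any 1 library FOXO1 was not called (adjusted p = 0.0783 to 0.146). STAT3 lost its call without control replicate 1 or 2 or knockdown replicate 1 or 3 (0.0547 to 0.0671), and E2F1 without control replicate 1 or any 1 knockdown library (0.0502 to 0.0737).

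Among 13 regulators of BCL2L1 splicing 0 rose and 5 fell, beside 12.6% and 12.5% of all tested genes. SRSF10, the target of the knockdown, is 1 of the 5, and without it 4 of 12 fell. TRA2B, a partner of SR proteins, fell from 20.7 ± 0.5 to 17.3 ± 0.042 FPKM (log2 fold change -0.25, limma adjusted p = 0.00338), and it lies on chromosome 3. HNRNPA1, a splicing repressor, fell from 222 ± 7.9 to 197 ± 2.2 FPKM (log2 fold change -0.17, limma adjusted p = 0.0154), a call lost without knockdown replicate 1 or 2 (adjusted p = 0.0545 for each). SRSF1 (-0.18, adjusted p = 0.0427) and RBM25 (-0.18, adjusted p = 0.0349), named after their values were seen, fell by similar log2 amounts. Their calls were lost without most of the single libraries, in 5 of 6 fits for SRSF1 (0.055 to 0.122) and 4 of 6 for RBM25 (0.0868 to 0.109). KHDRBS1 (Sam68) was at 58.5 and 58.7 FPKM (adjusted p = 0.914). The median log2 fold change was -0.11 over the 13 genes and -0.10 over the 12 without SRSF10, beside -0.01 over all tested genes.

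**Figure D4:**
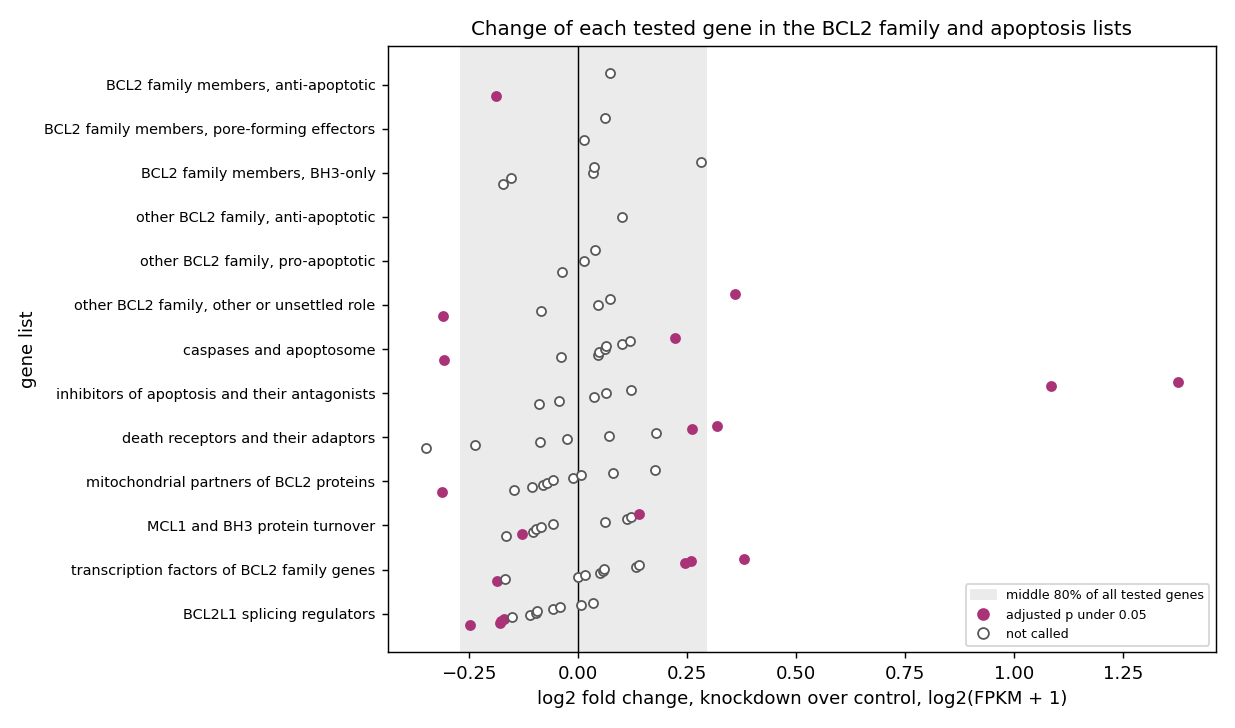
Log2 fold change on the log2(FPKM + 1) scale (x axis) of each tested gene in the BCL2 family and apoptosis lists (y axis), SRSF10 left out, with filled points for genes that passed the test. BIRC3 at 1.38 and BIRC7 at 1.08 stand apart, and the tested members in the upper 3 rows lie between -0.19 and 0.28.

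Outside the 10 members and the splicing regulators, 10 of the genes in these lists were called higher and 5 lower, of 65 tested. That is 15.4% and 7.69%, beside 12.6% and 12.5% over all tested genes. Without single libraries the higher calls numbered 5 to 9 and the lower calls 2 to 6. The higher calls were 5 without control replicate 1 or any 1 knockdown library and 6 without control replicate 3. The lower calls were 3 without control replicate 1 or knockdown replicate 3, and 2 without knockdown replicate 1. Calls over all 12191 tested genes dropped in the same fits as well. They numbered 986 to 1344 higher and 975 to 1335 lower, beside 1542 and 1525 in the full fit.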

How the data were processed

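The authors deposited FPKM values for each gene, as one matrix and again in 6 sample files with the same values. Trim Galore 0.6.5-1, FastQC 0.11.9 and the build GRCh38 are named in the submitters' processing notes. For the aligner, counting program, annotation and strand setting, nothing is given in the sources used here. Because FPKM are already divided by length and depth, no count model was run. Genes with at least 1 FPKM in at least 3 libraries (12191) were tested on log2(FPKM + 1) in limma 3.58.1 (R 4.3.3), comparing the groups with no other term. The variance prior followed mean expression, and p-values were adjusted by Benjamini-Hochberg. Fold changes on this scale understate changes of low genes. Levels are means ± SD. Positions, exon lengths and sequences come from GENCODE release 29, and 58516 of the 60623 gene identifiers were found there. Depth, and the fragments behind a value, were estimated from the steps between low FPKM values: 87.8% to 88.4% of values of up to 6.5 fragments lay within 0.05 of a whole number. Fragment estimates and counting error rest on that, and on lengths that may differ from the authors'. Python 3.11.15, Biopython 1.88 and matplotlib 3.10.9 were used for sequences and figures.

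The members and the lists of apoptosis genes were chosen with earlier results of these data known, so list counts carry no test of their own. All members, SRSF10 and all other BCL2 family genes are named, and in each further list up to 3 called genes per direction. SRSF1 and RBM25 among the splicing regulators are named beyond that limit, after their values were seen. Genes of those lists named without a call are examples chosen after their values were seen. Alternatives were a pseudocount of 0.1, no filter, a 5 FPKM filter, the replicate number as a block, quantile normalization, scaling by the median of ratios, rescaling with mitochondrially encoded genes removed, limma without the trend, and leaving out each library. In the last, the genes tested were kept as in the full fit. Some genes of the lists are counted but not reported here by name.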

Additional observations from a re-analysis of the deposited data

How the results depend on the processing

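MCL1 was called lower under all 14 alternatives, with log2 fold changes of -0.201 to -0.169 and adjusted p of 0.00492 to 0.032, and no other tested member was called under any of them. The counts for the members, 0 higher and 1 lower, were the same in each. Directions of uncalled members turned for BAX without control replicate 3 (-0.047), for BBC3 without knockdown replicate 1 (-0.072) and with quantile normalization (-0.0060), and for BID without knockdown replicate 3 (-0.0070). Leaving out single libraries gave up to 0.075 for BAX, 0.14 for BBC3 and 0.059 for BID. Over all tested genes 1542 were higher and 1525 lower, and with single libraries left out 986 to 1344 and 975 to 1335. With no filter 32280 genes were tested, of which 1132 were higher and 1013 lower. Of the other apoptosis genes 5 were then higher and 4 lower, with APAF1, TRADD, FOXO1, STAT3 and BNIP3L no longer called higher. Leaving out single libraries gave 5 to 9 of the other apoptosis genes higher and 2 to 6 lower. The cause of these drops was not tested. Of the other genes named as called, those lost with no filter also included E2F1, HNRNPA1, SRSF1 and RBM25. Without the trend APAF1, HUWE1, USP9X, SRSF1 and RBM25 were lost, with quantile normalization APAF1, HUWE1, FOXO1 and RBM25, with the smaller pseudocount FOXO1, and without mitochondrially encoded genes SRSF1.

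The survival sum was 14.2 and 15.1 FPKM in control and knockdown without MCL1, and 130 and 118 FPKM with the other family genes added. The pro-apoptotic sum became 80.9 and 80.8 FPKM with them. The ratio was 0.211 and 0.223 without MCL1 and 1.61 and 1.46 with the other family genes.

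Same-numbered libraries share a number and no stated origin, and deviations from the group means correlated with r = 0.016, 0.057 and -0.071 for numbers 1, 2 and 3, so they were not treated as pairs. With the replicate block 1193 genes were higher and 1146 lower, and MCL1 was still called, while APAF1, TRADD, HUWE1, FOXO1, SRSF1 and RBM25 were not. Depth limits BCL2 and BBC3 most, at 15 to 72 estimated fragments per library.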
